A study of Homo sapiens with 24 samples.

Results

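In control cultures of SH-SY5Y cells a small group of transcripts was brighter on day 4 than on day 2 of culture, and these are the probes described here. The deposited normalized values were raised to at least 50, put on the log2 scale and averaged over the 3 arrays of each group. Of 20589 probes on the array, 9069 had a highest group mean of at least 7 log2. Of those, 82 (0.904%) were at least 0.55 log2 higher on day 4 than on day 2 in scrambled control cells without retinoic acid (RA), and differed by less than 0.4 log2 between OE and control cells on day 2. These 82 probes are called the members below. They were chosen by the values of the control arrays of both days and of the OE arrays of day 2, so those values are given as a description with no test.

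SH-SY5Y is a human neuroblastoma cell line that can be driven towards a neuron-like state, and all 24 arrays came from it. Every group had 3 arrays. Without RA there were scrambled control (SCR) and OE cells, each on day 2 and on day 4. With RA, all on day 2, there were SCR cells, KD cells (knockdown of miR-125b), OE cells and OE+KD cells. OE is read here as overexpression of miR-125b. The abbreviation is not explained in the labels, whose source names have DP instead, and the level of miR-125b itself was not analysed here. The growth text in the labels describes the knockdown of another gene, so no culture condition is taken from it. The line stands for 1 tumour, and the labels do not say whether the 3 arrays of a group came from separate cultures, so the spread between them may be technical.

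MicroRNAs are short RNAs that guide a silencing complex to messenger RNAs, mostly through pairing with bases 2 to 8 of the microRNA, the seed. miR-125b is abundant in brain. Retinoic acid binds nuclear receptors that act as transcription factors, and it is widely used to slow the growth of neuroblastoma cells and to start their differentiation. The mature miR-125b is shown with its seed in capitals, because KD is labelled as its knockdown and OE is read as its overexpression. It is the RefSeq sequence (GRCh38.p14), encoded at chr11:122099809-122099830 on the minus strand (MIR125B1) and at chr21:16590253-16590274 on the plus strand (MIR125B2).
hsa-miR-125b-5p: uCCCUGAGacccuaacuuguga

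Each probe is known here by its Illumina ID alone, without a gene. The members are therefore unnamed, their functions cannot be given, it is unknown whether several of them read the same gene, and the neuroblastoma identity of the cells was not checked against marker genes. Between 14.3% and 17.6% of the scanner values on each array were negative after a background subtraction made before deposit. The arrays differed in brightness, with means of 617.8 to 1134.2 scanner units. The residual SD of the tested probes ran from 0.091 to 0.198 log2 on 23 arrays and was 0.276 on replicate 2 of OE with RA. The counts of called members in comparisons with that array, and the orders of the groups, are therefore also given without it. Splits of the members by their OE call, other sets of probes and correlations are given with it only. For all values below other than those of the rule, log2 values of the scanner intensities after background correction and quantile normalization were used, which compresses the differences of dim probes. All 82 members were among the 10691 probes tested.

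In the values of the rule the rise in SCR cells ran from 0.55 to 1.45 log2, with a median of 0.62. It was at least 1 log2 for 6 members and under 0.65 for 47, so most members lay close to the threshold. The 3 members just inside it differed by 0.5511, 0.5522 and 0.5537, and the 3 probes just outside it by 0.5496, 0.5487 and 0.5470. At the limit on OE, the 3 members closest to it differed from SCR on day 2 by 0.39, 0.38 and -0.38 log2, and the 3 probes just beyond it by 0.40, -0.40 and 0.41. The members were dimmer than other bright probes, with a median SCR level on day 2 of 8.09 against 9.17 log2 over the 9069. For 63 members SCR on day 4 was the highest of the 8 group means, for 9 it was OE on day 4, and for 10 it was a group with RA.

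The 2 members with the largest rise show how different the rest of the pattern can be. ILMN_24504 read 7.57, 7.60 and 7.40 normalized log2 intensity in SCR on day 2 and 8.70, 8.49 and 8.46 on day 4. In OE cells it read 7.44, 7.47 and 7.26 on day 2 and 7.73, 7.57 and 7.76 on day 4, so its OE arrays of day 4 stayed below every SCR array of that day. ILMN_25878 read 8.41, 8.29 and 8.35 in SCR on day 2 and 9.55, 9.43 and 9.60 on day 4. In OE cells it read 8.41, 8.24 and 8.60 on day 2 and 8.35, 8.49 and 8.60 on day 4, where the days overlapped. With RA on day 2 ILMN_24504 lay above its SCR level without RA, at 8.18 ± 0.03 against 7.52 ± 0.11 (SD, n = 3 each). ILMN_25878 lay below, at 7.99 ± 0.19 against 8.35 ± 0.06 (SD, n = 3 each).

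How far the rise holds in arrays that did not choose the probes was read by applying the rule to 2 replicate numbers and measuring the day change in the third. With replicate 1 left out, 90 probes were chosen and all 90 were higher on day 4 in the replicate 1 arrays, with a median of 0.61 log2. With replicate 2 left out, 104 of 105 were higher, with a median of 0.52. With replicate 3 left out, 96 of 96 were higher, with a median of 0.61. Over all bright probes 49.5%, 45.7% and 49.7% were higher in those same arrays. The medians in the arrays that did the choosing were 0.66, 0.64 and 0.65, so the rise was somewhat smaller where it had not been selected. These choices shared 64, 62 and 63 probes with the 82 members. Since the 3 arrays of a group may be technical repeats, the left-out arrays cannot show that the rise holds in a separate culture.

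**Figure D1:**
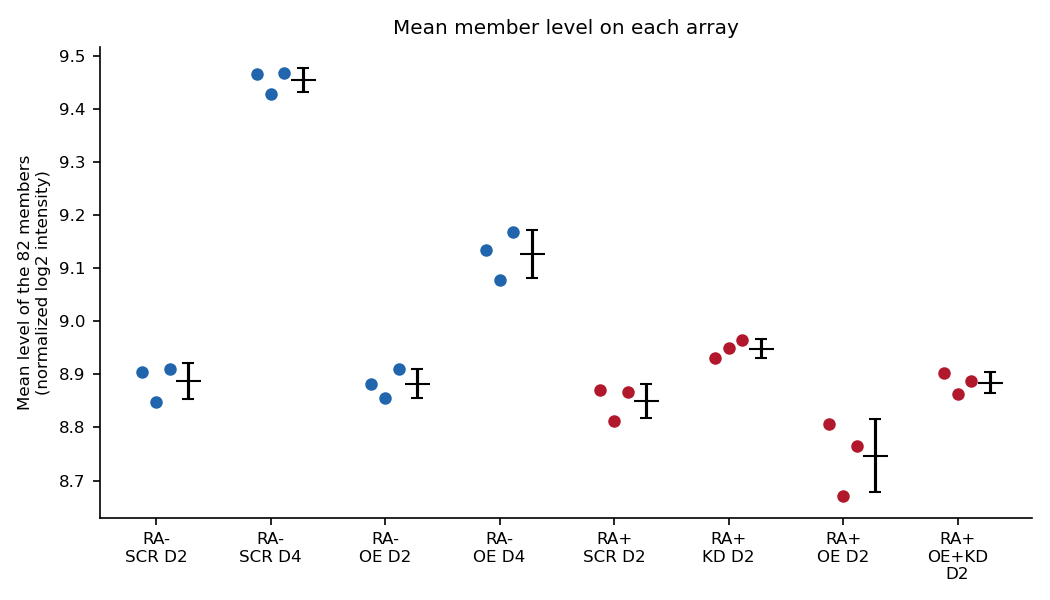
Mean normalized log2 intensity of the 82 members on each of the 24 arrays (points, replicates 1 to 3 from left to right; without RA in blue, with RA in red), with the group mean and SD beside them. The SCR day 4 arrays, used to choose the members, lie at 9.43 to 9.47, the OE day 4 arrays at 9.08 to 9.17, and all day 2 arrays at 8.67 to 8.97.

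Averaged over the members, the level was 8.90, 8.85 and 8.91 log2 on the 3 SCR arrays of day 2 and 9.47, 9.43 and 9.47 on those of day 4. The OE arrays of day 2 read 8.88, 8.86 and 8.91, which the rule placed near the controls. The OE arrays of day 4 read 9.13, 9.08 and 9.17, above every day 2 array and below every SCR array of day 4. With RA the day 2 levels were 8.87, 8.81 and 8.87 in SCR, 8.93, 8.95 and 8.97 in KD, 8.81, 8.67 and 8.76 in OE, and 8.90, 8.86 and 8.89 in OE+KD. Among the groups with RA, KD arrays were the highest and OE arrays the lowest, with no overlap of either with the other 3 groups. Quantile normalization gives all arrays the same overall distribution, so these levels are relative to the other probes.

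In SCR cells 79 of the 82 members were called higher on day 4 by limma (adjusted p under 0.05), and 0 lower, against 5.79% and 6.51% of all tested probes. The rule used this contrast, so nothing is read from that count. In OE cells without RA, which passed through the same 2 days, 40 members were called higher on day 4 than on day 2 and 3 lower. Over all tested probes 13.3% were called higher and 13.3% lower. The median OE day change was 0.28 log2 (quartiles 0.06 and 0.50) against 0.53 in SCR (quartiles 0.48 and 0.63). The day 2 OE arrays entered the rule and the SCR change was selected to be large, so the gap between the 2 medians is a description. The day change was larger in SCR than in OE for 71 members.

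The members spread widely in OE cells, as 2 of them chosen after their values were seen show. ILMN_22865 read 7.12, 7.12 and 7.31 in OE cells on day 2 and 8.09, 8.11 and 8.24 on day 4, a difference of 0.96 log2 (SE 0.103). In SCR cells it went from 7.02 ± 0.11 to 7.47 ± 0.11 (SD, n = 3 each). ILMN_20637 read 8.67, 8.78 and 9.00 in OE cells on day 2 and 7.10, 7.17 and 7.61 on day 4, a difference of -1.53 log2 (SE 0.214). In SCR cells it went the other way, from 8.58 ± 0.24 to 9.07 ± 0.24 (SD, n = 3 each), and there its arrays of each day spread more than those of most members.

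**Figure D2:**
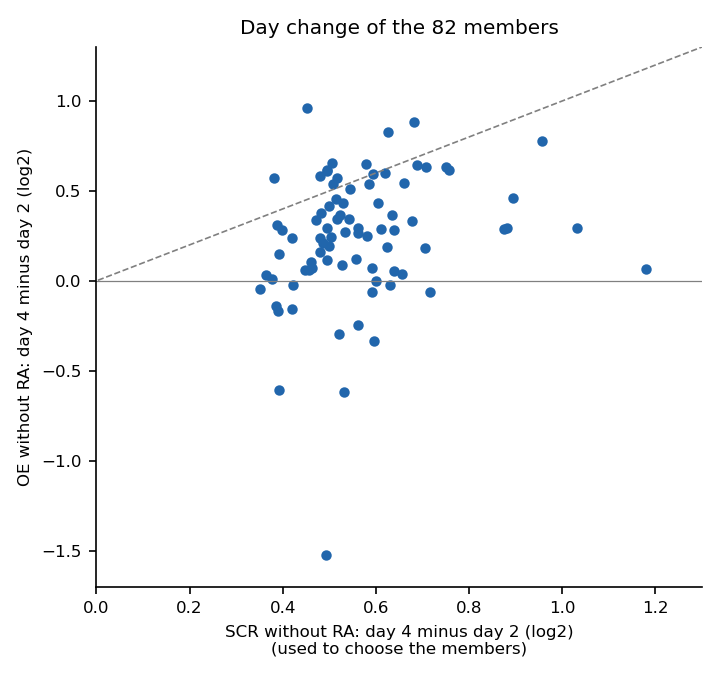
Day 4 minus day 2 difference (log2) of each of the 82 members in OE cells against that in SCR cells, both without RA; the dashed line marks equal change. 71 members lie below the line, 68 lie above 0 in OE cells, and the lowest point is ILMN_20637 at -1.53.

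On day 4 itself, 44 members were called lower and 4 higher in OE than in SCR cells, against 25.3% and 26.2% of all tested probes. The median difference was -0.27 log2. The SCR arrays of day 4 were selected to be high, so this count is not a result about OE. On day 2 without RA, where the rule kept OE close to SCR, 6 members were called higher and 6 lower, against 15.6% and 15.8% of all tested probes, and the median was 0.00 log2. With median scaling 1 was called higher and 8 lower.

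Averaged over the members, SCR cells with RA on day 2 lay at 8.85 log2, against 9.45 in SCR cells on day 4. The rule selected the day 4 arrays to be high, so this gap is a description. With RA, 9 members were called higher and 11 lower in SCR cells than without it, against 9.31% and 10.1% of all tested probes, with a median difference of -0.11 log2. With median scaling 9 were called higher and 19 lower. In OE cells 9 were called higher and 33 lower, against 11.3% and 11.6%, with a median of -0.22 log2. Without replicate 2 of OE with RA 11 were called higher and 31 lower, against 10.1% and 10.46%. The arrays without RA entered the rule in both comparisons, so these counts are descriptions. The largest RA difference in SCR cells was that of ILMN_22865. It read 7.02 ± 0.11 without RA and 9.22 ± 0.13 with it (SD, n = 3 each), a wider gap than that between its days. ILMN_6429 and ILMN_12017 also rose more with RA in SCR cells (0.82 and 0.56 log2) than between the days (0.46 and 0.52).

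The comparisons among the 4 groups with RA used no array of the rule's differences. Those arrays did enter the choice through the condition that the highest of the 8 group means reach 7 log2. For 2 members, ILMN_22960 and ILMN_7496, only groups with RA reached it: KD for the first, KD and OE+KD for the second. Their high values in those groups were thus selected, so they are described with no test, and each count is also given over the other 80 members. The comparisons ask how the members differ with OE and KD in RA-treated cells. They share arrays among themselves: KD, OE and OE+KD against SCR share the SCR arrays, and OE+KD against OE shares the OE arrays with OE against SCR. Calls are limma's at an adjusted p under 0.05, adjusted over all 10691 tested probes.

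OE with RA lowered more members than it raised: 24 fell and 7 rose, with a median of -0.14 log2 over the 82. Over all tested probes 19.9% fell and 19.8% rose, and the median was 0.00 log2. The members that fell were thus 29.3% of the 82 and those that rose 8.54%. The rule had kept OE close to SCR on day 2 without RA. Over all tested probes that difference correlated with the OE difference with RA (r = 0.86). The rule thus also bears on the members' shares here, and the shares of all tested probes are not matched to it. Over the other 80 members 23 fell and 7 rose. Without replicate 2 of OE, 15 members fell and 10 rose, against 17.4% and 18.3% of all tested probes, and the median was -0.08 log2. The excess of falling over rising members therefore shrank without that array. With only the 2 groups fitted 10 members fell and 5 rose, or 12.2% and 6.10%, against 12.6% and 12.5% of all tested probes, so that the share that fell lay at the background. ILMN_6429 read 9.03, 9.05 and 9.14 in SCR and 8.35, 8.50 and 8.64 in OE with RA, without overlap, a difference of -0.58 log2 (limma adjusted p = 0.000285, SE 0.116). ILMN_24176 read 8.02, 7.89 and 7.99 in SCR and 7.58, 7.18 and 7.46 in OE, a difference of -0.56 log2 (limma adjusted p = 2.67e-05, SE 0.092). ILMN_22865 rose most, by 1.06 log2 (limma adjusted p = 1.12e-08, SE 0.103), from 9.33, 9.08 and 9.26 in SCR to 10.26, 10.09 and 10.49 in OE. ILMN_5346 rose by 0.51 log2 (limma adjusted p = 0.000295, SE 0.102).

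KD with RA raised 12 members and lowered 5, or 14.6% and 6.10% of the 82, against 8.61% and 7.7% of all tested probes. The median was 0.07 log2 against -0.01 over all tested probes. Over the other 80 members 10 rose and 5 fell (12.5% and 6.25%). With median scaling 7 of the 82 rose and 4 fell, and with the stricter filter, which kept 39 members, 7 rose and 0 fell. ILMN_22960, which the level condition kept for its KD value, read 7.06, 7.24 and 7.30 in SCR and 7.95, 8.06 and 8.14 in KD. On day 4 without RA its SCR arrays had read 7.37, 7.32 and 7.49, below its KD arrays with RA. ILMN_26434 rose by 0.84 log2 with KD (limma adjusted p = 1.12e-05, SE 0.117), to 10.18, 10.36 and 10.16 from 9.29, 9.48 and 9.42. ILMN_24176 fell with KD too, by 0.53 log2 (limma adjusted p = 0.000157, SE 0.092). ILMN_21599 fell by 0.43 log2 (limma adjusted p = 0.0271, SE 0.134), a call that was lost without any 1 of replicates 2 and 3 of SCR with RA and 1 and 2 of KD (adjusted p from 0.0695 to 0.101).

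**Figure D3:**
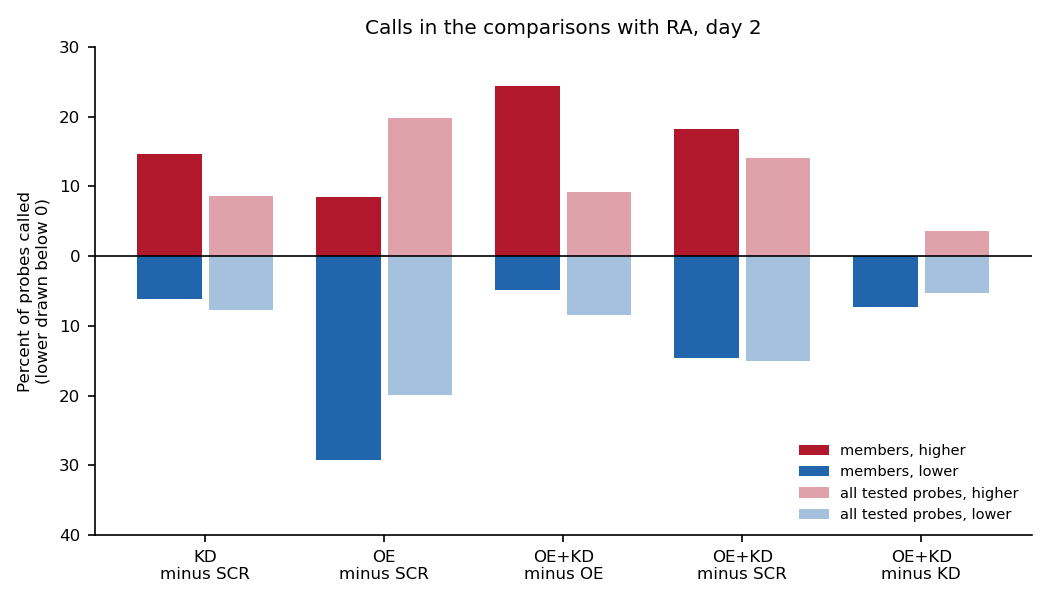
Percent of the 82 members (full colour) and of all 10691 tested probes (pale) called higher (red, above 0) or lower (blue, below 0) in each of the comparisons of 2 groups with RA on day 2. Members reach 29.3% lower for OE minus SCR and 24.4% higher for OE+KD minus OE, against 19.9% and 9.17% of all tested probes.

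Adding KD to OE raised 20 members against OE alone and lowered 4, or 24.4% and 4.88% of the 82. Over all tested probes 9.17% rose and 8.44% fell, and the medians were 0.15 log2 for the members and 0.00 for all. Over the other 80 members 18 rose and 4 fell (22.5% and 5.00%). Without replicate 2 of OE 8 members rose and 2 fell, against 5.08% and 3.94%. Without replicate 1 of OE+KD 13 rose and 2 fell. When only the arrays of these 2 groups were fitted 3 rose and 0 fell (limma), against 0.973% of all tested probes called in either direction. With median scaling 6 rose and 4 fell, so that 60.0% of the called members were higher in place of 83.3%. That scaling also moved the median of all tested probes by -0.10 log2, and the members' median stayed 0.15 log2 above it. ILMN_22960 read 6.90, 6.84 and 7.04 in OE and 7.56, 7.62 and 7.70 in OE+KD. ILMN_1986 rose by 0.66 log2 (limma adjusted p = 0.00160, SE 0.134), from 8.69, 8.46 and 8.47 to 9.32, 9.29 and 9.01. ILMN_2255 fell by 0.46 log2 (limma adjusted p = 0.00384, SE 0.105), a call lost with only these 2 groups fitted (limma adjusted p = 0.0868). ILMN_5346, which OE had raised, fell by 0.37 log2 (limma adjusted p = 0.0147, SE 0.102), a call lost without replicate 2 of OE (limma adjusted p = 0.0556), without replicate 1 of OE+KD (0.0922) and with only these 2 groups fitted (0.144).

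Against SCR, OE+KD cells had 15 members higher and 12 lower, or 18.3% and 14.6%, against 14.1% and 15.0% of all tested probes. These shares lay near the background, and the median was 0.02 log2. With median scaling 40.9% of the called members were higher in place of 55.6%. Among the other 80 members 13 were higher and 12 lower. ILMN_22865 rose by 0.71 log2 (limma adjusted p = 1.28e-05). ILMN_7496, kept for its KD and OE+KD values, differed by 0.57 log2. ILMN_19849 fell by 0.55 log2 and ILMN_16764 by 0.51 (limma adjusted p = 0.000355 and 0.00526). ILMN_19849 read 11.84, 11.85 and 11.74 in SCR and 11.18, 11.27 and 11.32 in OE+KD.

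Against KD, OE+KD cells had 6 members lower and 0 higher by limma, against 5.24% and 3.59% of all tested probes, and 18 members had an unadjusted p under 0.05. The median was -0.08 log2 against 0.01 over all tested probes. Of the other 80 members 5 were lower. The count was 2 without replicate 2 of OE+KD and 3 without replicate 3 of KD. ILMN_18421 fell by 0.40 log2 (limma adjusted p = 0.00229, SE 0.082). ILMN_22960, chosen for its KD level, lay at 6.93 ± 0.10 in OE, 7.20 ± 0.12 in SCR, 7.63 ± 0.07 in OE+KD and 8.05 ± 0.10 in KD (SD, n = 3 each).

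**Figure D4:**
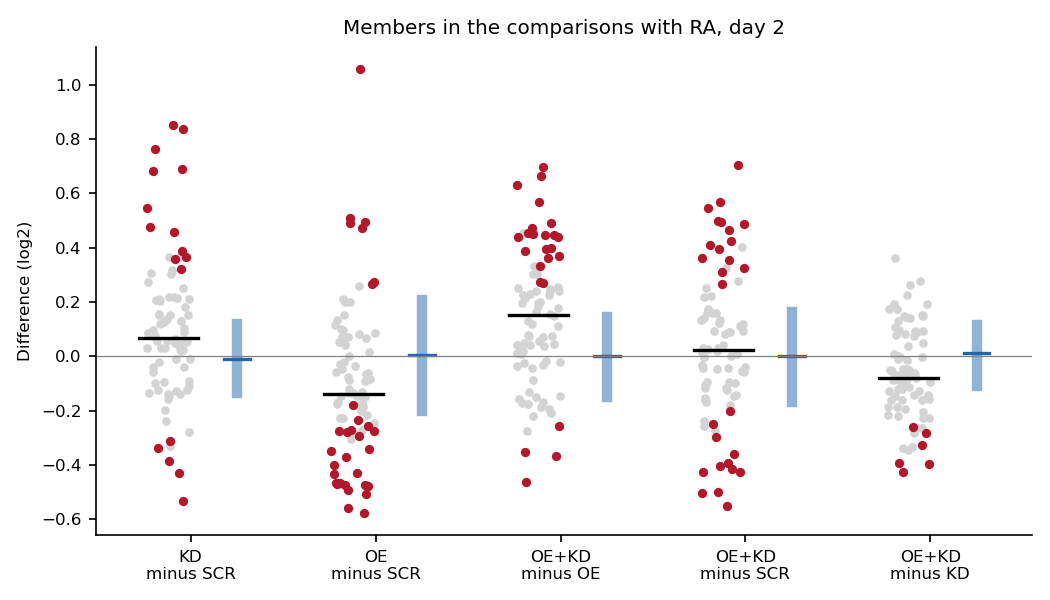
Difference (log2) of each of the 82 members in the comparisons of 2 groups with RA on day 2, called members in red and the others in grey, with the members' median as a black line; the blue bar and line give the quartiles and median of all 10691 tested probes. The members' medians are 0.07, -0.14, 0.15, 0.02 and -0.08 from left to right, and those of all tested probes lie between -0.01 and 0.01.

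Whether KD acted alike with and without OE was tested as the difference between both KD effects. It was called for 9 members, 4 higher and 5 lower in OE cells, against 6.41% and 6.87% of all tested probes. These shares (4.88% and 6.10% of the 82) lay near or below the background.

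The order of the 4 groups with RA summarises these differences member by member. OE was the lowest group for 42 members (51.2%) against 31.6% of all tested probes. KD was the highest for 39 members (47.6%) against 18.3%. These counts were 41 and 37 over the other 80 members. When each array with RA was left out in turn, OE was the lowest for 37 to 47 members and KD the highest for 32 to 40, where all tested probes gave 28.7% to 33.9% and 17.6% to 21.3%. With median scaling the counts were 36 (22.5% of all tested probes) and 37 (15.2%), and in the authors' normalized values 45 (33.0%) and 37 (18.5%). OE+KD lay between OE and KD for 44 members (53.7%), near the 50.8% of all tested probes.

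Comparisons that share no array were set side by side across probes, which are not independent replicates. The KD effect without OE and the KD effect with OE had the same sign for 58 members (70.7%) against 55.5% of all tested probes, with r = 0.38 over the 82 members and 0.14 over all tested probes. Over the other 80 members the same sign was seen for 56 (70.0%), with r = 0.30. Among members called in both, 6 were higher in both (4 over the other 80), 0 lower in both and 1 opposite. Among all tested probes called in both, 134 were higher in both, 152 lower in both and 152 opposite. The OE effect without KD and the OE effect with KD had the same sign for 55 members (67.1%), close to the 65.8% of all tested probes. Here r was 0.25 over the members and 0.53 over all tested probes. The rule kept only members with a small OE difference on day 2 without RA, so these r values are not like for like. The OE effects with RA and without RA on day 2 correlated with r = 0.63 over the members, where the rule had limited the second to a narrow range, and with 0.86 over all tested probes.

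The 24 members that fell with OE and RA can be set beside the 51 not called. Without RA, OE against SCR called 18 of the 24 lower and 0 higher on day 4, with a median of -0.48 log2, and 23 of the 51 lower and 2 higher, with a median of -0.21. Over all tested probes 25.3% were lower and 26.2% higher on day 4. Of the 2123 tested probes that fell with OE and RA, 1496 were also lower on day 4. The SCR arrays of day 4 were selected to be high, so the day 4 counts are a description. On day 2 without RA, OE against SCR called 5 of the 24 lower and 0 higher, and 0 of the 51 lower and 5 higher. The shares of all tested probes there were 15.8% lower and 15.6% higher. The rule had kept OE close to SCR on that day, so the day 2 counts are a description too. The 24 had a median OE day change without RA of 0.29 log2, and the 51 members not called had one of 0.24. OE+KD against KD called 5 of the 24 lower and 0 higher, against 5.24% and 3.59% of all tested probes. Of the 2123 tested probes that fell with OE and RA, 426 were also called lower in that comparison. That share lay near the share of the 24, so the count is not particular to the members.

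Other probes that moved with culture time in SCR cells give a point of comparison, described with no test. With the rule mirrored, 143 probes fell between the days, and OE with RA called 36 of them higher and 16 lower (25.2% and 11.2%). In the same fit the members had the opposite balance, which shrank without replicate 2 of OE. The 143 were not counted without that array. Over all tested probes OE with RA called 19.8% higher and 19.9% lower. OE+KD minus OE called 10 of the 143 higher and 18 lower (6.99% and 12.6%), against 9.17% and 8.44% of all tested probes. The condition on OE left out 76 probes that rose with culture time, of which 38 lay below SCR in OE cells on day 2. KD with RA called 29 of the 76 higher and 13 lower (38.2% and 17.1%). The shares were 8.61% and 7.7% of all tested probes, and 14.6% and 6.10% of the members. The 76 were set apart by their difference in OE cells, so their KD counts are a description.

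Since the members were chosen to differ between the SCR arrays of the 2 days, their fold changes depend on which SCR arrays serve as control, and the authors' deposited table pools them. Its column headed OE against SCR on day 2 without RA equals, with a largest gap of 0.0 log2 over the 9069 bright probes, the OE mean minus the mean of all 6 SCR arrays of days 2 and 4. In the authors' deposited table the members' median in that column was -0.38 log2, with 76 of 82 below 0 and 25 at or below -0.55. Recomputed from the authors' normalized values against the SCR arrays of day 2 alone, the median was -0.04 log2, with 47 below 0 and 0 at or below -0.55. The column headed OE against SCR on day 4 in the authors' deposited table holds the same 6 control arrays, with a members' median of -0.03 log2, against -0.38 when recomputed against day 4 alone. Over all bright probes the median size of the gap between the authors' deposited table and the day-matched values was 0.077 log2 for each day. The 3 columns with RA in the authors' deposited table equal the mean of replicates 1 and 2 minus the mean of the 3 SCR arrays with RA, although 2 of their headers name SCR without RA.

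**Figure D5:**
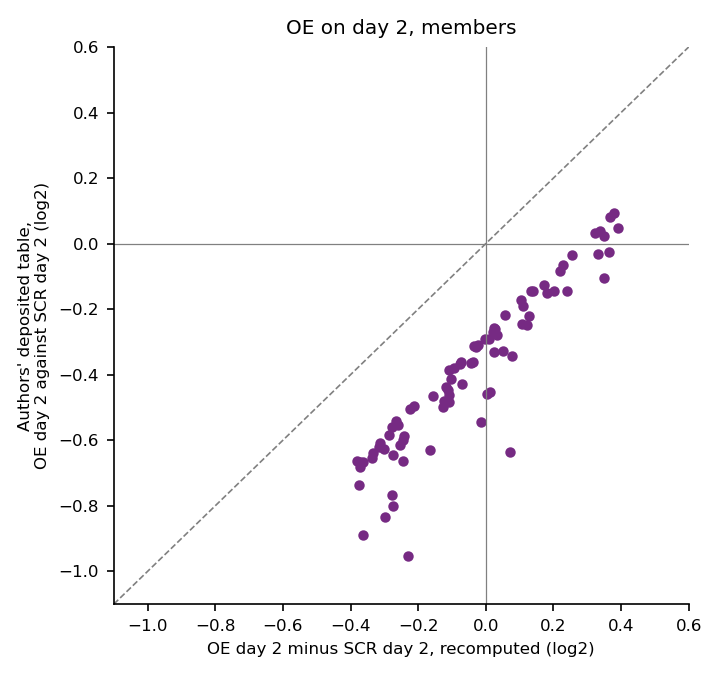
OE against SCR on day 2 without RA for the 82 members in the authors' deposited table (vertical axis, log2) against the difference recomputed from the authors' normalized values with the day 2 SCR arrays alone (horizontal axis, log2); the dashed line marks equal values. All members lie below the line, with medians of -0.38 in the authors' deposited table and -0.04 recomputed.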

How the data were processed

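Total RNA of 24 SH-SY5Y samples was hybridised to Illumina arrays, 3 per group. The deposited scanner table holds intensity values per probe, on a linear scale and including negative values, which shows an earlier background subtraction. The deposited normalized intensity values, with a floor of 20, chose the members; the authors' normalization is not given in the sources used here beyond that its first array equals the scanner values above the floor. A deposited table of log2 fold changes was only described.

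In R 4.3.3, limma 3.58.1 corrected the scanner intensities for background (normexp with an offset of 50) and normalized them by quantiles before log2 was taken. Probes above their array's median on all 3 arrays of at least 1 group were tested, 10691 in all (51.9%). One model of 8 groups left 16 residual degrees of freedom. Contrasts were tested with eBayes and Benjamini-Hochberg adjustment over all tested probes, and called at an adjusted p under 0.05. Counts, orders and figures were made with matplotlib 3.10.9, NumPy 2.4.6 and pandas 2.3.3 under Python 3.11.15. The fit was tested on simulated data. The number of arrays limits the precision.

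The text names the 2 members with the largest difference in the values of the rule and, for each tested comparison, the first 2 risers and 2 fallers by size among called members whose arrays did not overlap between the groups. The condition on overlap was not applied to the difference between the KD effects. Members named for the OE day change or for RA in SCR cells were picked outside this scheme, after their values were seen. The members, the comparisons and the lists were chosen with earlier results of these data known. Lists of genes and cell type markers were not used, since probes could not be named. Same-numbered arrays deviated together (every correlation of residuals over 0.1) for KD, OE and OE+KD against OE, with lowest values of 0.11, 0.14 and 0.11, and not for OE+KD against SCR (0.098) or against KD (0.079). The pairing comes from the replicate numbers in the titles alone. Alternatives were other normalizations, filters, weights, a replicate block, the contrast's own groups alone and each array left out. The choice by 2 replicate numbers, the orders of the groups under other settings, the counts over members that reach 7 log2 without RA, and leaving out arrays in the comparisons without a test were added after seeing the data.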

Additional observations from a re-analysis of the deposited data

Results flagged for a closer look

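The effect of KD was measured with and without OE, and the difference between the 2 effects was itself tested. Among the 82 members 9 were called (10.98%), and 1420 of all 10691 tested probes. By direction 4 members (4.88%) had a higher and 5 (6.10%) a lower KD effect in OE cells. Over all tested probes these shares were 6.41% and 6.87%, so the members lay near or below the background. The count was 8 without replicate 2 of OE with RA. The KD effect had opposite signs in the 2 backgrounds for 8 of the 9, and for 80.3% of all 1420 probes called; both KD effects were themselves called for 1 of the 9. ILMN_22865 differed most, by -1.12 log2 (SE 0.145, limma adjusted p = 8.45e-06): it read 9.22 ± 0.13 in SCR and 9.99 ± 0.11 in KD, but 10.28 ± 0.20 in OE and 9.93 ± 0.13 in OE+KD (SD, n = 3 each). ILMN_8503 differed by -0.68 log2 (SE 0.153, limma adjusted p = 0.00375). ILMN_24176 differed by 0.69 log2 (SE 0.130, limma adjusted p = 0.000672), from 7.97 ± 0.07 in SCR and 7.43 ± 0.10 in KD to 7.41 ± 0.20 in OE and 7.56 ± 0.05 in OE+KD (SD, n = 3 each). ILMN_9476 differed by 0.50 log2 (SE 0.141, limma adjusted p = 0.0193), a call lost without replicate 2 of OE (0.0528) and with only the 4 groups with RA fitted (0.0692).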

How the results depend on the processing

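No named probe changed sign among its called values, but the balance of called members did move. With median scaling OE+KD against SCR went from 15 higher and 12 lower to 9 higher and 13 lower. OE against SCR on day 2 without RA went from 6 and 6 to 1 and 8. The causes of these moves and of those below were not tested, except that fewer members (39 of 82) enter the stricter filter. The number of members was 190 with a rise of at least 0.45, 35 with 0.65, and 76 to 98 when an array was left out; scanner values gave 55, of which 37 were among the 82. For KD against SCR the members called (17) became 11 with median scaling, 7 with the stricter filter and 29 with array weights, and 12 to 17 without 1 array. For OE against SCR (31) they were 17 with the stricter filter, 15 with the contrast's own groups and 25 to 34 without 1 array. For OE+KD against OE (24) they were 10 with median scaling, 3 with its own groups and 10 to 36 without 1 array. For OE+KD against SCR (27) they were 13 with the stricter filter and 20 to 25 without 1 array. For OE+KD against KD (6) they were 3 with median scaling, 2 with the stricter filter, 10 with array weights and 2 to 7 without 1 array. For the difference between the KD effects (9) they were 5 with the stricter filter, 5 with its own groups and 7 to 11 without 1 array.

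With the replicate block 11 members were called for OE+KD against KD, where the numbers were not shown to pair the arrays; the block gave 22, 40, 29, 31 and 11 for the other comparisons in the order above, within 1.5 times the counts without it.

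Over the 80 members that reach 7 log2 without RA the counts stayed within 1.5 times those over 82.

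The medians of the described comparisons moved as follows. The SCR day change was 0.64 log2 with no background correction, 0.48 with median scaling, 0.62 in the authors' values and 0.52 to 0.57 without 1 array. The OE day change was 0.32, 0.41, 0.32 and 0.25 to 0.32 in the same order. OE against SCR on day 4 gave -0.30, -0.13, -0.38 and -0.29 to -0.26. RA in SCR cells gave -0.13, -0.19, -0.13 and -0.14 to -0.070. RA in OE cells gave -0.27 with no correction, -0.28 in the authors' values and -0.24 to -0.21 without 1 array. OE against SCR on day 2 gave -0.066 with median scaling, -0.036 in the authors' values and -0.035 to 0.0067 without 1 array. Median scaling moved the median of all tested probes by 0.14 log2 for the OE day change and 0.12 for OE against SCR on day 4. Over the named probes 308 alternative values kept their call and 11 lost it, for ILMN_21599, ILMN_2255, ILMN_5346 and ILMN_9476. The 308 include values of ILMN_22960 and ILMN_7496, which the level condition kept for their values with RA. Nothing is read from the kept calls of those 2 members.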
